A study of Rattus with 6 samples.

Results

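The vasoactive peptides and receptors described here are 10 genes, taken by symbol from the 30211 genes of a read count table. They are the peptide precursors Adm, Edn1 and Agt, the peptidase Ace, and the receptors Ednra, Ednrb, Agtr1a, Bdkrb2, Npr2 and Npr3. All 10 had a row in the table, 9 had at least 1 count and 9 passed the filter on low counts, and Agtr1a had no count in any library. The cells were mesenchymal stem cells of rat bone marrow, a stromal population able to form bone, fat and cartilage, and their RNA was sequenced. Of 6 libraries, 3 came from cells kept for 4 days with the synthetic glucocorticoid dexamethasone at 100 uM, and 3 came from cells at the same day of culture without it. Both groups carry the label of a wild type genotype, and the sources used here do not give the rat strain, the animals' age or whether a vehicle was added to the controls. Nothing in the labels says that the replicates of a group were grown apart or came from different rats. The p-values therefore cover only the spread among these libraries, which may be technical.

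These peptides set the tone of blood vessels and the balance of salt and water. Endothelin-1, angiotensin II and bradykinin act through receptors coupled to G proteins, of which several release calcium inside the cell. Adrenomedullin raises cyclic AMP through a receptor that needs an accessory protein. Natriuretic peptides signal through receptors that make cyclic GMP and are removed by a clearance receptor. In marrow stroma and bone the same systems also act locally: C-type natriuretic peptide signalling through Npr2 is needed for the growth of long bones, and endothelin-1 acts on cells of the osteoblast lineage.

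Library totals were 34835072 to 41676315 counts, and the dexamethasone libraries stood above the controls for Fkbp5, an established glucocorticoid receptor target, with 1370 ± 72.2 CPM against 69.8 ± 1.06 CPM (SD, n = 3 each). CPM are counts per 1e6 reads after TMM scaling. Stromal markers were abundant, summing to 5566 to 5654 CPM with dexamethasone and 4730 to 4803 CPM in controls over 10 genes. The highest with dexamethasone were Vim and Pdgfra, and in controls Col1a1 and Vim. These markers did not share a direction: 5 rose, 4 fell and 1 was not called. Vim stood at 2732 CPM with dexamethasone and 1112 CPM in controls, and Pdgfrb at 137 and 616 CPM. Endothelial markers were scarce: 9 genes summed to 5.14 to 6.11 CPM with dexamethasone and 7.37 to 8.09 CPM in controls, with Egfl7, Tek and Vwf the highest over all 6 libraries, and Emcn and Cldn5 had no count. Macrophage markers summed to 1.67 to 2.04 CPM against 5.80 to 7.10 CPM, and 4 of 6 tested fell. Of these, Cd53, Cd74 and Lyz2 passed the filter on low counts only through the controls, so a fall was favoured in advance. Of the macrophage markers, Ptprc, which was not called, was the highest with dexamethasone, and Cd74, Cd53 and Cd68 in controls. Markers of smooth muscle and pericytes summed to 393 to 400 CPM with dexamethasone and 347 to 357 CPM in controls. Des was the highest in both groups and Lmod1 next with dexamethasone only. Of 9 tested 2 rose, 6 fell and 1 was not called. Over all tested genes 32.3% rose and 31.7% fell, and the calls counted in each marker list are read against these shares. Notch3, which rose, passed the filter only through the dexamethasone libraries, and Cnn1, which fell, only through the controls. Glial and melanocyte markers, read because these cells carry Ednrb, summed to 1.995 to 3.08 CPM against 3.95 to 4.67 CPM, and 2 of 2 tested fell, of which Pmel was not called without dexamethasone replicate 3 or control replicate 3 (adjusted p = 0.118 and 0.0988, edgeR), nor against a fold of 1.5 (adjusted p = 0.637, edgeR's glmTreat) or with the coefficient of variation between replicates set to 0.2 (adjusted p = 0.0796, edgeR's likelihood ratio test).

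Of the 9 tested genes 4 rose with dexamethasone (Npr3, Ednra, Ace and Adm), 4 fell (Ednrb, Bdkrb2, Edn1 and Npr2) and Agt was not called. Genes were called where edgeR's quasi-likelihood test gave a p, adjusted over 14111 genes by the Benjamini-Hochberg method, of less than 0.05. In this comparison 64.0% of all tested genes were called, 32.3% upward and 31.7% downward, so 8 calls among 9 genes are read against a high background. The sizes of the changes set the genes apart from one another. Of the 9, 4 were called and changed at least 2-fold (Npr3, Ednrb, Bdkrb2 and Edn1), where 15.6% of all tested genes met both conditions. Npr3 passed the filter on low counts only through the dexamethasone libraries, so it had to differ. Without it 3 of the 8 other tested genes rose and 4 fell, and 3 of the 8 were called and changed at least 2-fold. The median log2 fold change was -0.11 over the 9 genes and -0.50 without Npr3, beside -0.00019 over all tested genes. The libraries of the groups did not overlap for 8 of the 9 genes, as for 66.9% of all tested genes. Tested against a fold of 1.5, 6 of the 9 genes were called, where 20.0% of all tested genes were. With the coefficient of variation between replicates set to 0.2, 6 were called, where 26.2% of all were. These counts, and that of genes whose libraries did not overlap, include Npr3. In bulk samples, a smaller share of cells with a transcript and less of it per cell cannot be told apart.

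**Figure D1:**
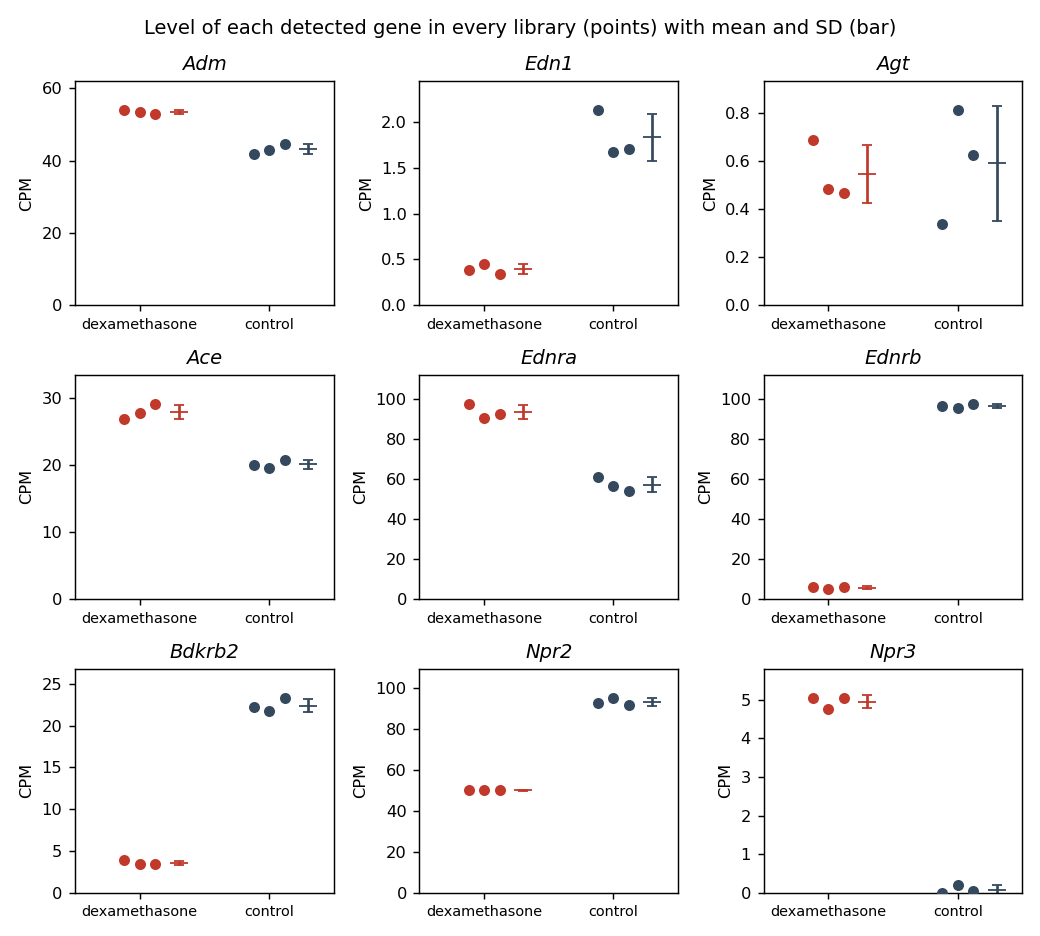
CPM of the 9 detected genes in each library, with dexamethasone left of control; points are libraries and the bar beside them gives the mean and SD of 3. The 2 groups are apart in every panel except that of Agt, and Ednrb, Bdkrb2 and Edn1 drop towards the axis with dexamethasone while Npr3 stands near it in the controls.

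Among the ligand genes, the endothelin-1 precursor fell and the adrenomedullin precursor rose slightly. Adm (chromosome 1, 175445088 to 175447259, plus strand) encodes the vasodilator adrenomedullin. It had 53.9, 53.3 and 52.8 CPM in the dexamethasone libraries and 41.9, 43.1 and 44.5 CPM in the control libraries. The lowest dexamethasone library lay above the highest control, and replicates differed by less than 3 CPM. The log2 fold change was 0.31 ± 0.027 (SE), a 1.24-fold rise (edgeR's quasi-likelihood test, Benjamini-Hochberg adjusted p = 7.0e-08). The call of Adm did not hold against a fold of 1.5 (adjusted p = 1 in edgeR's glmTreat) or with the coefficient of variation between replicates set to 0.2 (adjusted p = 0.409, edgeR's likelihood ratio test).

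Edn1 (chromosome 17, 22137324 to 22143324, minus strand) encodes the precursor of endothelin-1, a strong vasoconstrictor made mainly by endothelium. It had 0.379, 0.454 and 0.345 CPM with dexamethasone and 2.13, 1.67 and 1.70 CPM in controls. These are low levels: the dexamethasone libraries held 16, 16 and 14 counts and the controls 82, 66 and 68. Every dexamethasone library lay below every control, and the log2 fold change was -2.22 ± 0.15 (SE), 4.66-fold lower (edgeR's quasi-likelihood test, Benjamini-Hochberg adjusted p = 4.1e-09). The ratio of control to dexamethasone counts was 4.70, with an exact 95% binomial interval of 2.97 to 7.72 for counting error only. Endothelial markers were also at low levels and lower in sum with dexamethasone. Their part in the Edn1 result was not tested. Of the endothelial genes, Egfl7 had 462 counts with dexamethasone and 701 in controls, Vwf 24 and 107, Tek 163 and 92, and Cdh5 17 and 8.

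The angiotensin genes had few or no counts apart from the converting enzyme. Agt (chromosome 19, 57321640 to 57333433, minus strand), the precursor of all angiotensins, had 0.687, 0.482 and 0.468 CPM with dexamethasone and 0.337, 0.811 and 0.625 CPM in controls. The groups overlapped, with the lowest and the highest value both among the controls. Its log2 fold change was -0.11 ± 0.38 (SE) and it was not called (edgeR's quasi-likelihood test, Benjamini-Hochberg adjusted p = 0.813). With 65 counts against 70, the ratio of dexamethasone to control was 0.928 with an exact 95% binomial interval of 0.568 to 1.56, which covers counting error only and not the spread between libraries. Its sign turned to a log2 fold change of 0.18 without control replicate 2.

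Ace (chromosome 10, 94170766 to 94187822, plus strand) encodes angiotensin-converting enzyme, which makes angiotensin II and also breaks down bradykinin. It had 26.9, 27.7 and 29.1 CPM with dexamethasone and 19.9, 19.5 and 20.7 CPM in controls. The groups did not overlap, and the log2 fold change of 0.47 ± 0.042 (SE) is a 1.39-fold rise (edgeR's quasi-likelihood test, Benjamini-Hochberg adjusted p = 4.1e-09). Like that of Adm, the call of Ace did not hold against a fold of 1.5 (adjusted p = 1, glmTreat) or at a coefficient of variation of 0.2 (adjusted p = 0.144, edgeR's likelihood ratio test). Agtr1a (chromosome 17, 35907108 to 35958077, minus strand), which encodes the main vasoconstrictor receptor of angiotensin II, had 0 counts in all 6 libraries. The floor of 6 counts a library used here allows up to 0.142 to 0.170 CPM in the dexamethasone libraries and 0.150 to 0.156 CPM in the control libraries. Its near-identical copy Agtr1b and the second receptor type Agtr2 had no count either. The sources used here do not say how reads matching both Agtr1a and Agtr1b were counted. Whether such reads were left out is therefore uncertain.

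**Figure D2:**
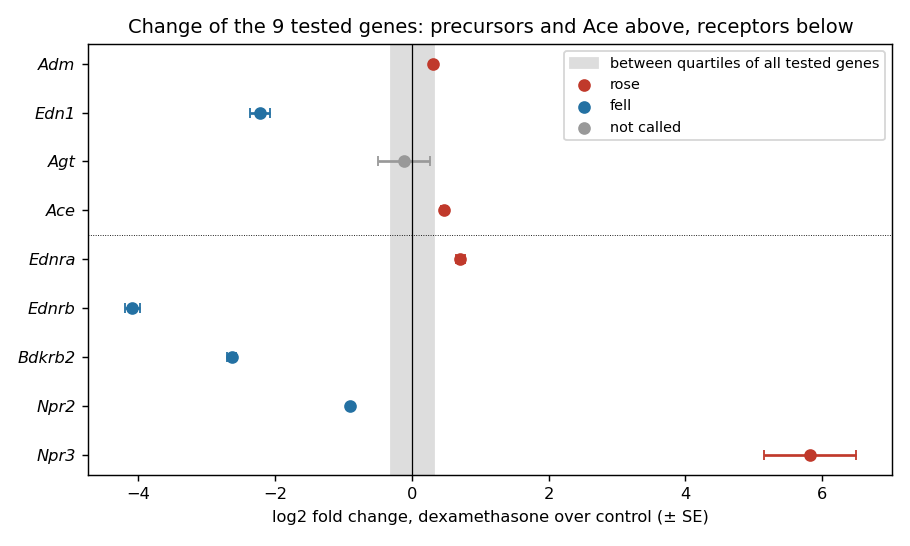
Log2 fold change of dexamethasone over control for the 9 tested genes, with SE from 3 libraries a group; peptide precursors and Ace stand above the dotted line and receptors below it, and the grey band runs between the quartiles of all tested genes, -0.30 and 0.33. Adm lies inside that band at 0.31 and Ace just outside it at 0.47, while Ednrb lies at -4.08 and Npr3 at 5.82.

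The endothelin receptors moved in opposite directions. Ednrb (chromosome 15, 88006977 to 88036354, minus strand) encodes the type B receptor, which clears endothelin-1 and in endothelium releases nitric oxide. It had 5.99, 4.82 and 6.13 CPM with dexamethasone and 96.4, 95.2 and 97.4 CPM in controls. Each dexamethasone library was far below each control, and dexamethasone replicate 2 was the lowest of the 6. The log2 fold change was -4.08 ± 0.11 (SE), 16.9-fold lower (edgeR's quasi-likelihood test, Benjamini-Hochberg adjusted p = 1.8e-42), and 0.716% of all tested genes had a lower log2 fold change. Glial and melanocyte markers were lower in sum too, as were endothelial markers, among which Egfl7 and Vwf fell and Tek rose. Vwf passed the filter on low counts only through the controls. The call of Tek was lost without dexamethasone replicate 1 or control replicate 3 (adjusted p = 0.0512 and 0.0852, edgeR) and against a fold of 1.5 (adjusted p = 0.312, glmTreat). That of Egfl7 was lost against a fold of 1.5 (adjusted p = 0.794, glmTreat) and at a coefficient of variation of 0.2 (adjusted p = 0.0672, edgeR's likelihood ratio test). The part of these markers in the Ednrb result was not tested. The glial gene Sox10 had 2 counts in each group, where Ednrb had 672 counts with dexamethasone and 11371 in controls.

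Ednra (chromosome 19, 33928356 to 33991703, plus strand) encodes the type A receptor, through which endothelin-1 contracts smooth muscle. It had 97.6, 90.8 and 92.7 CPM with dexamethasone and 61.2, 56.5 and 54.2 CPM in controls. The groups did not overlap, and the log2 fold change was 0.71 ± 0.060 (SE), a 1.64-fold rise (edgeR's quasi-likelihood test, Benjamini-Hochberg adjusted p = 8.3e-19). This call held against a fold of 1.5 (adjusted p = 0.00258, glmTreat). Contractile and pericyte markers did not share a direction: Lmod1 rose by 5.16 on the log2 scale, Tagln, whose exons overlap Sidt2, was called with a log2 fold change of -2.81, and Myh11 stood at 47.7 ± 0.560 CPM with dexamethasone and 48.1 ± 1.37 CPM in controls (SD, n = 3 each). Their part in the Ednra result was not tested.

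Within each library the ratio of Ednrb to Ednra, in counts per kilobase of exon, was 0.156, 0.135 and 0.168 with dexamethasone and 4.01, 4.29 and 4.58 in controls. The control libraries thus held more Ednrb than Ednra per length and the dexamethasone libraries less, with no overlap. The log2 ratio was lower by 4.81 (exact two-sided permutation test over 6 libraries, p = 0.1, and 0.1 adjusted over 3 ratios), which is the smallest p that 3 against 3 libraries allow. The groups did not overlap for either gene, in opposite directions, so the ratio had to separate them and this p adds nothing. Ednrb made up 13.3% ± 1.27 of the summed level of the pair per length with dexamethasone and 81.1% ± 1.02 in controls (SD, n = 3 each). That sum was 21.3 ± 0.960 CPM per kilobase with dexamethasone and 59.6 ± 0.773 in controls.

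The natriuretic peptide receptors also moved in opposite directions. Npr3 (chromosome 2, 61888950 to 61949926, minus strand) encodes the clearance receptor, which takes up natriuretic peptides and lacks a guanylyl cyclase domain. It had 5.05, 4.76 and 5.05 CPM with dexamethasone and 0, 0.203 and 0.050 CPM in controls. The control libraries held 0, 8 and 2 counts, at or near the floor of 6 counts, against 213, 168 and 205 counts with dexamethasone. The ratio of dexamethasone to control was 58.6, with an exact 95% binomial interval of 24.8 to 182 that covers counting error only. The fitted log2 fold change of 5.82 ± 0.67 (SE) depends on the prior count (edgeR's quasi-likelihood test, Benjamini-Hochberg adjusted p = 7.5e-19), and 99.7% of tested genes had a lower one. It was 5.26 without control replicate 1 and 7.44 without control replicate 2, the library with 8 counts, and 6.48 with limma-voom; the other settings gave values between 5.55, without control replicate 3, and 5.87.

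Npr2 (chromosome 5, 59128315 to 59147255, plus strand) encodes the guanylyl cyclase receptor of C-type natriuretic peptide. It had 49.9, 50.1 and 49.9 CPM with dexamethasone and 92.49, 94.998 and 91.41 CPM in controls. The dexamethasone libraries were nearly identical and all below the controls, with a log2 fold change of -0.90 ± 0.017 (SE), 1.86-fold lower (edgeR's quasi-likelihood test, Benjamini-Hochberg adjusted p = 1.6e-24). The ratio of Npr3 to Npr2 per kilobase, with 1 count added because a control had none, was 0.199, 0.187 and 0.199 with dexamethasone and 0.00055, 0.0047 and 0.0016 in controls. Npr2 thus remained the more abundant of the pair in all 6 libraries. The log2 ratio was higher by 6.92 with dexamethasone (exact two-sided permutation test, p = 0.1, the smallest possible). This p too was fixed in advance, as both genes had groups apart in opposite directions. With dexamethasone Npr3 made up 16.3% ± 0.478 of the pair's level per length, against 0.174% ± 0.216 in controls (SD, n = 3 each). The summed level of the pair was 14.9 ± 0.056 CPM per kilobase with dexamethasone and 23.3 ± 0.505 in controls.

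Among their partners, Nppc, the gene of C-type natriuretic peptide, had 0.944 ± 0.351 CPM with dexamethasone and 1.18 ± 0.347 CPM in controls (SD, n = 3 each) and was not called (edgeR, Benjamini-Hochberg adjusted p = 0.337). Npr1, which encodes the receptor of atrial and B-type natriuretic peptides, was near the floor at 0.224 ± 0.073 and 0.407 ± 0.087 CPM and was not called (edgeR, Benjamini-Hochberg adjusted p = 0.0969). Nppa, the gene of atrial natriuretic peptide, had no count. Bdkrb1, Ece1, Nppc, Npr1, Pam and Agtrap come from the related lists but were picked, as was Ramp2, for description after their values were seen, as direct partners of the 10 genes.

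Both bradykinin receptor genes fell. Bdkrb2 (chromosome 6, 129399468 to 129429676, plus strand) encodes the B2 receptor, the constitutive receptor of bradykinin. It had 3.89, 3.49 and 3.42 CPM with dexamethasone and 22.2, 21.7 and 23.3 CPM in controls. The groups were well apart, with a log2 fold change of -2.63 ± 0.064 (SE), 6.21-fold lower (edgeR's quasi-likelihood test, Benjamini-Hochberg adjusted p = 3.6e-28). Bdkrb1, which encodes the inflammation-induced B1 receptor and lies beside Bdkrb2 on chromosome 6, had 0.379, 0.340 and 0.345 CPM with dexamethasone and 3.42, 4.00 and 3.30 CPM in controls, a log2 fold change of -3.32 ± 0.095 (SE) (edgeR, Benjamini-Hochberg adjusted p = 1.6e-16). Per length, the pair summed to 1.14 ± 0.076 CPM per kilobase with dexamethasone and 8.15 ± 0.161 in controls (SD, n = 3 each).

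The gene of the bradykinin precursor went the other way. Kng1, kininogen, had 97.0, 98.9 and 98.8 CPM with dexamethasone and 2.13, 2.03 and 1.60 CPM in controls, and rose by 5.68 ± 0.12 (SE) on the log2 scale (edgeR, Benjamini-Hochberg adjusted p = 2.3e-45). Rats carry several near-identical kininogen genes, including those of T-kininogen, an acute-phase protein, and the symbol Kng1 is also an older name of others in the rat gene table. Which of them these reads came from is therefore uncertain.

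The order of levels per length changed between the groups. With dexamethasone Adm came first at 38.5 ± 0.409 CPM per kilobase (SD, n = 3), followed by Ednra at 18.5, Npr2 at 12.5, Ace at 7.41, Ednrb at 2.83, Npr3 at 2.42, Bdkrb2 at 0.872, Edn1 at 0.282 and Agt at 0.282. Ednrb and Npr3 overlapped in range in these libraries, as did Edn1 and Agt. In controls Ednrb came first at 48.3 ± 0.542 CPM per kilobase (SD, n = 3), followed by Adm at 31.1, Npr2 at 23.2, Ednra at 11.3, Bdkrb2 at 5.43, Ace at 5.33, Edn1 at 1.32, Agt at 0.306 and Npr3 at 0.041. Only Bdkrb2 and Ace, and Npr3 and the undetected Agtr1a, overlapped with their neighbour there. Ednrb fell 4 places with dexamethasone and Npr3 moved up 3.

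**Figure D3:**
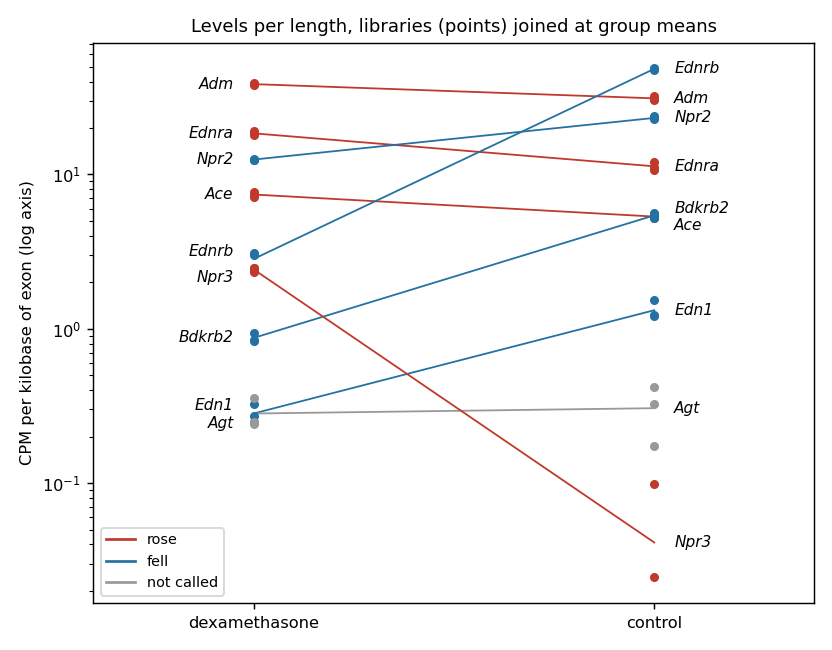
Level per kilobase of exon (log axis) of the 9 detected genes with dexamethasone (left) and in controls (right); points are libraries and lines join the group means. Ednrb leads in controls at 48.3 CPM per kilobase and stands below Ace with dexamethasone at 2.83, and the control library of Npr3 with no count is not drawn.

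The ligand genes shifted against each other as well. The ratio of Edn1 to Adm per length was 0.0070, 0.0085 and 0.0065 with dexamethasone and 0.051, 0.039 and 0.038 in controls. Adm was the more abundant in all 6 libraries, and the log2 ratio was lower by 2.53 with dexamethasone (exact two-sided permutation test, p = 0.1, the smallest that 3 against 3 libraries allow). Edn1 and Adm also had groups apart in opposite directions, so none of the 3 ratios could give another p. The ratios and their order of size are a description.

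**Figure D4:**
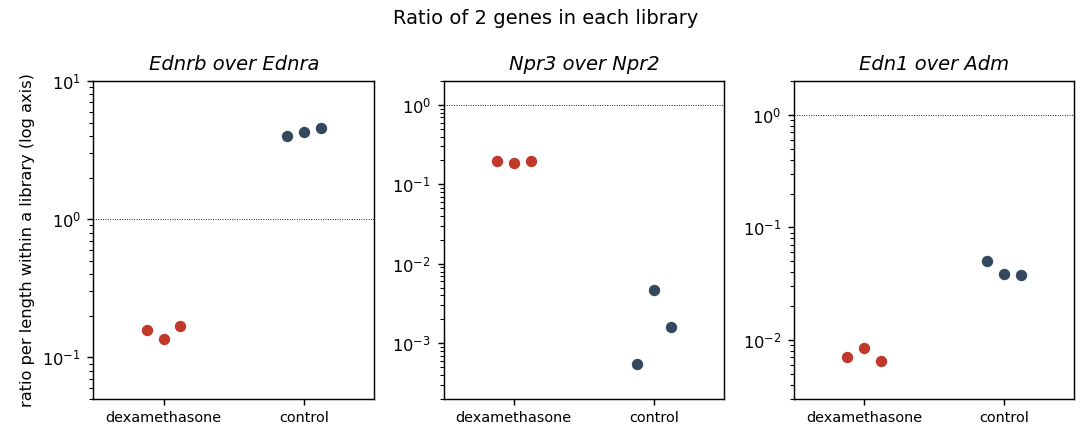
Ratio per length within each library (log axis) for Ednrb over Ednra, Npr3 over Npr2 (1 count added to each) and Edn1 over Adm; the dotted line marks equal levels. The groups are apart in all 3 panels, and in the first they stand on opposite sides of that line, at 0.135 to 0.168 with dexamethasone and 4.01 to 4.58 in controls.

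Other genes of these peptide systems came from 4 lists of 76 names, of which 72 had a row, 11 had no count and 39 were tested. Of those 39, 20 rose, 12 fell and 7 were not called, with a median log2 fold change of 0.24, beside 64.0% called among all tested genes. Only 3 of 20 other peptide precursors were tested, of which 2 rose, Kng1 and Apln. Apln, the gene of the vasodilator apelin, had 24.4, 21.0 and 25.1 CPM with dexamethasone and 15.0, 15.3 and 15.7 CPM in controls, a log2 fold change of 0.62 ± 0.080 (SE) (edgeR, Benjamini-Hochberg adjusted p = 1.9e-10), a call that did not hold against a fold of 1.5 (adjusted p = 0.518, glmTreat). The precursors Calca, Calcb, Edn2, Edn3, Nppa, Uts2 and Avp had no count in any library.

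Of 10 tested receptors and receptor partners, 4 rose, 5 fell and 1 was not called. Calcrl and Ramp3, which together form an adrenomedullin receptor, fell while Adm rose. Calcrl, the calcitonin receptor-like receptor, had 37.7, 36.7 and 36.3 CPM with dexamethasone and 77.2, 76.9 and 72.2 CPM in controls, a log2 fold change of -1.03 ± 0.035 (SE). Ramp3, the accessory protein of that receptor, had 24.9, 26.9 and 27.6 CPM with dexamethasone and 63.2, 65.7 and 72.2 CPM in controls, a log2 fold change of -1.34 ± 0.072 (SE). Ramp2, the other such accessory protein, was called upward at low levels, with 15, 14 and 29 counts with dexamethasone and 13, 4 and 8 in controls (edgeR, Benjamini-Hochberg adjusted p = 0.0233), but it passed the filter only through the dexamethasone libraries and its exons overlap AABR07072184.1. That call was lost without dexamethasone replicate 3, control replicate 2 or control replicate 3 (adjusted p = 0.212, 0.142 and 0.0698, edgeR), in the DESeq2 test (adjusted p = 0.0607) and against a fold of 1.5 (adjusted p = 0.160, glmTreat). The groups did not overlap for Calcrl or Ramp3 (edgeR, Benjamini-Hochberg adjusted p = 8.6e-25 for Calcrl and 4.7e-25 for Ramp3). Ackr3, a scavenger receptor of CXCL12 that also binds adrenomedullin, was higher at 57.1 ± 1.56 CPM against 36.2 ± 1.28 CPM in controls (SD, n = 3 each), a call that did not hold against a fold of 1.5 (adjusted p = 0.0839, glmTreat). Avpr1a, the V1a receptor of vasopressin, stood at 41.4 ± 2.15 CPM with dexamethasone and 18.9 ± 1.35 CPM in controls (SD, n = 3 each), a rise of 1.13 on the log2 scale. Agtrap, which promotes internalisation of the angiotensin II type 1 receptor, rose by 0.34 on the log2 scale, although no type 1 receptor gene had a count. Its call did not hold against a fold of 1.5 (adjusted p = 1, glmTreat) or at a coefficient of variation of 0.2 (adjusted p = 0.345, edgeR's likelihood ratio test).

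Of 16 tested enzymes of peptide processing and breakdown, 7 rose, 5 fell and 4 were not called, with a median log2 fold change of 0.14. The 4 with the smallest p all fell. Enpep, aminopeptidase A, which trims angiotensin II, had 118 ± 4.11 CPM with dexamethasone and 421 ± 5.35 CPM in controls (SD, n = 3 each), a log2 fold change of -1.84. Mme, neprilysin, which breaks down natriuretic peptides, endothelin-1 and bradykinin, had 36.7 ± 1.33 CPM with dexamethasone and 94.6 ± 1.89 CPM in controls. Furin, a proprotein convertase, and Cpe, a carboxypeptidase of prohormone processing, had log2 fold changes of -1.40 and -1.32. Ece1, the enzyme that releases endothelin-1 from its precursor, rose while Edn1 fell: it had 221, 215 and 213 CPM with dexamethasone and 107, 108 and 105 CPM in controls, a log2 fold change of 1.02 ± 0.022 (SE) (edgeR, Benjamini-Hochberg adjusted p = 6.4e-30). Pam, which amidates adrenomedullin, had 139 ± 6.22 CPM with dexamethasone and 103 ± 1.16 CPM in controls (SD, n = 3 each), a call that did not hold against a fold of 1.5 (adjusted p = 1, glmTreat) or at a coefficient of variation of 0.2 (adjusted p = 0.188, edgeR's likelihood ratio test).

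Of 10 tested genes of signal relay and receptor desensitisation, 7 rose, 2 fell and 1 was not called, with a median log2 fold change of 0.42. Plcb4, a phospholipase C activated by receptors coupled to Gq, rose to 154 ± 3.16 CPM with dexamethasone, against 19.8 ± 1.94 CPM in controls (SD, n = 3 each). Itpr1, the calcium channel opened by inositol trisphosphate, rose to 216 ± 8.15 CPM, against 48.4 ± 1.16 CPM in controls. Its exons overlap AABR07061707.1 on the opposite strand, and since the sources used here do not give the strand setting, reads of the overlap cannot be assigned to either. Arrb1, beta-arrestin 1, and Grk5, a kinase that marks active receptors for arrestin, rose by 2.40 and 1.27 on the log2 scale. The calls of these 4 genes held under all alternatives tried.

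**Figure D5:**
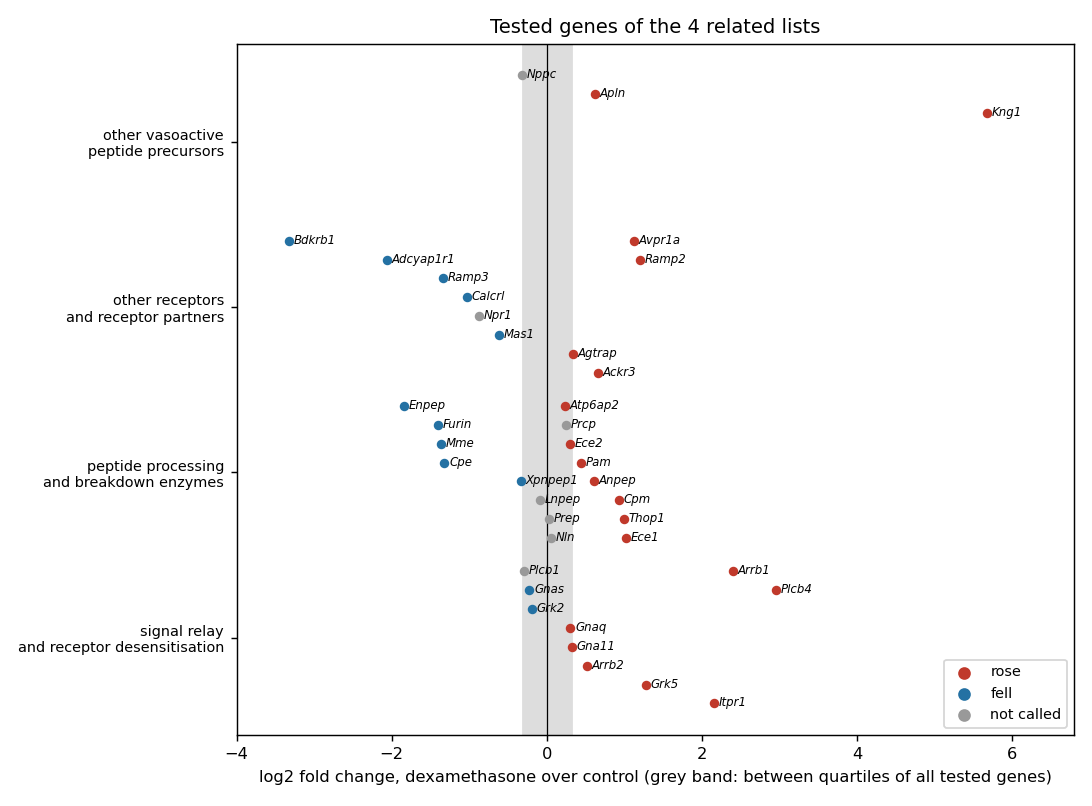
Log2 fold change of dexamethasone over control for the 39 tested genes of the 4 related lists, with colour for the call and a grey band between the quartiles of all tested genes; height within a list only separates the names. Kng1 lies far right at 5.68, Bdkrb1 far left at -3.32, and Plcb4, Arrb1 and Itpr1 stand above 2.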

How the data were processed

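The authors deposited a single table of raw read counts, with 1 column for each of 6 libraries and the exon coordinates and lengths of every gene, per the file headers. Per the labels' protocols, libraries were made from total RNA with a SMARTER mRNA-seq kit. The sources used here do not name an aligner, counting program or strand setting. The submitters' processing notes name mm10, a mouse build, but the table holds rat genes: all 10 symbols are in a rat gene table (GRCr8) on the same chromosome. Coordinates are those of the deposited table, whose rat build the sources used here do not name.

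Groups follow the titles, since the treatment tag reads DEX for all 6 samples. After filterByExpr, 14111 genes went into the quasi-likelihood test of edgeR 4.0.16 (R 4.3.3), with TMM scaling, no covariate and Benjamini-Hochberg adjustment. Alternatives used limma 3.58.1 and DESeq2 1.42.0. SEs come from log2 CPM with a prior count of 2. CPM per kilobase divides by the deposited exon length. Of values from 1 to 20, 69.0% to 71.5% were even, so 6 counts, or 3 pairs of reads, served as the floor, and counting intervals used counts of read pairs, each 0.5 of the count rounded up. Ratios of 2 genes were compared by exact permutation over libraries, with 1 count added for Npr3 over Npr2.

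In simulated data for this comparison, the test run on 13955 genes recovered 22 of 50 changes of 1.2-fold, 32 of 47 of 1.5-fold, 46 of 50 of 2-fold and 49 of 49 of 4-fold. There 13759 genes were left unchanged, whereas 64.0% of tested genes were called in the data. The Benjamini-Hochberg adjustment was therefore stricter in the simulation, and these rates do not carry over to the data. The 10 genes, the related lists and the marker lists were chosen with earlier results of these data known. From each related list the 4 called genes with the smallest p were named, or all called where fewer, and from each marker list the 3 most abundant; some of these genes are not reported here. Planned promoter motif searches were not run, since no sequence was used here.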

Additional observations from a re-analysis of the deposited data

How the results depend on the processing

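The 4 rises and 4 falls among the 10 genes were found under DESeq2 size factors, library size alone, no filter on low counts, the DESeq2 test, limma-voom and every library left out in turn (4 to 4 rises and 4 to 4 falls). With the coefficient of variation set to 0.2 there were 2 rises and 4 falls, and against a fold of 1.5 also 2 and 4, since Adm and Ace were no longer called. Of 126 values for the 9 tested genes under 14 alternatives, 121 kept direction and side of the threshold, 4 lost the call (Adm and Ace) and 1 reversed (Agt, log2 0.18 without control replicate 2, in a range of -0.39 to 0.18 over libraries left out). With the replicate numbers as a block there were again 4 rises and 4 falls, and 4553 rises and 4438 falls over all genes. The deviations of same-numbered libraries from their group means correlated at 0.00264, -0.00784 and 0.0203. These values show no pairing, but genes with few counts weigh as much as others in them, so they cannot exclude it. Over all tested genes, 1993 rose and 1700 fell with the coefficient of variation set to 0.2, and 1549 and 1278 against a fold of 1.5, where the first setting assumes more spread and the second tests a larger change; leaving out a library gave 4334 to 4464 rises and 4218 to 4333 falls. Rises among the related genes numbered 13 and 8 in those settings, against 20, and 19 to 21 without a library. Library size alone moved the median of all genes to 0.038 (log2). Of the marker genes, Myh11 reversed at values near 0 (log2 0.025 with library size alone, 0.00033 without dexamethasone replicate 3, 0.0075 without control replicate 1, in a range of -0.033 to 0.0075 over libraries left out). The log2 ratios kept their signs in every alternative; under the block of replicate numbers they were -4.81, 6.92 and -2.53, where 3 pairs allow no p below 0.25 by exact sign flips. Depth limits Agt, Edn1 and the control level of Npr3, which rest on few counts.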

Other observations

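Of the 22 related genes with a count that did not pass the filter, 6 had libraries that did not overlap between the groups, beside 11.3% of all such genes. These genes were picked after their values were seen and have no test. Adm2, the gene of the adrenomedullin-like peptide intermedin, had 0, 0 and 0 counts with dexamethasone and 14, 14 and 6 in controls. Npy, neuropeptide Y, had 0 counts with dexamethasone and 10 in controls, while its receptor gene Npy1r had 22 and 2. Dpp4, a dipeptidyl peptidase that trims neuropeptide Y, had 14, 6 and 18 counts with dexamethasone and 2, 2 and 2 in controls. Gucy1b1, a subunit of soluble guanylyl cyclase, had 12, 6 and 2 counts against none in controls.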
